A study of Mus musculus with 4 samples.

Results

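The genes described here encode 10 proteases of the lysosome, namely the cathepsins Ctsa, Ctsb, Ctsc, Ctsd, Ctsh, Ctsk, Ctsl, Ctss and Ctsz and the legumain gene Lgmn. They were picked by symbol, with earlier values of these libraries in view, from 52636 genes in the count tables, and all 10 were found and passed the filter on low counts. The RNA came from otic cells of mouse otocysts, isolated by fluorescence sorting. Otocysts are the closed vesicles of ectoderm from which the inner ear forms. Each library came from 3000 cells. The 2 libraries labelled Control are set against 2 labelled Brg1cKO (below, the Brg1cKO pair), in which the chromatin remodeler gene Brg1 was to be deleted conditionally. The sources used here do not give the embryos' age, the Cre driver, the alleles of either group or any pooling of embryos. Nothing says that the replicates came from separate litters or sorts, so p-values reflect library-to-library spread alone, and that spread could be technical.

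Lysosomal cathepsins are made as inactive proenzymes, tagged with mannose 6-phosphate, carried by receptors to the endosome and activated there as the pH falls. Ctsb, Ctsd, Ctsl and Ctsa are made by nearly every cell for the turnover of proteins. Ctss, Ctsc, Ctsh, Ctsz and Lgmn are known for their high levels in macrophages and other white blood cells, and Ctsk for its high level in osteoclasts, where it cuts collagen. In a developing embryo, tissue macrophages, which clear dying cells, are rich in lysosomes.

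The libraries held 15357265 to 29361382 reads in genes, with fewer in both controls. The controls also had fewer detected genes (17086 and 17266) than the others (20859 and 20902). Reads in genes made up 48.2% and 49.3% of records for Control and 64.0% and 63.7% for the Brg1cKO pair, and unaligned reads 20.9% and 19.1% against 9.54% and 9.41%. These signs differ with the groups in every comparison below, and their part in the results was not tested. Levels of single genes are given as CPM, read counts scaled to a common library total, with TMM scaling for differences in composition. Smarca4, the gene for Brg1, read 816 and 815 CPM for Control and 891 and 848 CPM for the Brg1cKO pair. Its count includes exons that a conditional allele may leave in place, and the deleted part is not given, so this does not check the labels. The defining otic marker Oc90, a matrix protein of the otolith layer, read 782 and 732 CPM for Control and 44.6 and 49.1 CPM for the Brg1cKO pair. All 4 libraries also held transcripts of other cells, among them the endothelial gene Cdh5 at 694 to 795 CPM.

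The stretch before a RefSeq start of transcription is shown for 4 of the genes. It holds a match to a motif known from lysosomal genes (Ctsd and Ctsa) or from genes of blood cells (Ctsc and Ctss). Windows from 250 bases before to 50 bases after the start were taken from RefSeq (build GRCm38.p6), which gave 10 windows for 8 of the 10 genes. Ctsb and Ctsh have no window here. Capitals mark TCACGTG, the core of the site bound by TFEB and its relatives, which drive lysosomal genes, or GAGGAAGT, a site form bound by PU.1 and other ETS factors of blood cells, in either case on either strand.

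Ctsd: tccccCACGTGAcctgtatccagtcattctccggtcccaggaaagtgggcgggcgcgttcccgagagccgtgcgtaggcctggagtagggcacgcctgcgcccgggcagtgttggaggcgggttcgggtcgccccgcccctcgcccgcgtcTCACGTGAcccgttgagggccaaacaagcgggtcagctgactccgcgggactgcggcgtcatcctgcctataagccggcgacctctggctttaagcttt
Ctsa: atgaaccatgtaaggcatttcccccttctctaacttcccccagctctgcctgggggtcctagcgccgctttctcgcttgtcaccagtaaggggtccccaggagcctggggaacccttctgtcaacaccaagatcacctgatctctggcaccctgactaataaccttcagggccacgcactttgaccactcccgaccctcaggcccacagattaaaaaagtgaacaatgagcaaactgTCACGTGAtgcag
Ctsc: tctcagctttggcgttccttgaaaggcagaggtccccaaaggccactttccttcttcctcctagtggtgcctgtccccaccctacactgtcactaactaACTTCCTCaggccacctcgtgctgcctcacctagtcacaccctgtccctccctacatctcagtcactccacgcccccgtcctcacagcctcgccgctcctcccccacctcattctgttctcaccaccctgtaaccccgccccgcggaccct
Ctss: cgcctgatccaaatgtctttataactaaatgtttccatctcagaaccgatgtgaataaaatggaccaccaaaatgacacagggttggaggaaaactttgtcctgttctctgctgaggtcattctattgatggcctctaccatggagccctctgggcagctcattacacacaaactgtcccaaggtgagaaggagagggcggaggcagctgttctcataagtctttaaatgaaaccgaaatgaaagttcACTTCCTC

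The Ctsd stretch is chr7:142387828-142388077 on the minus strand, the Ctsa stretch chr2:164833523-164833772, the Ctsc stretch chr7:88277835-88278084 and the Ctss stretch chr3:95526536-95526791, the last 3 on the plus strand; the Ctss stretch runs past the start to the end of its match. TCACGTG was found in windows of 3 genes. In Ctsd the matches began 245 and 99 bases before the start. Ctsa had 2 windows, and in the one shown a match began 13 bases before the start, with another just after it. The other Ctsa window, beside the annotated start of the gene, held no match. The Ctsa stretch shown thus lies inside the annotated gene, as does part of the Ctsd stretch. In Lgmn a match began 50 bases before the start of one of its windows. Of all 32851 RefSeq windows of this length, 3.77% hold TCACGTG. GAGGAAGT was found in Ctsc, 151 bases before the start, and in Ctss, 2 bases before it and running over it, and in 3.2% of all windows. The shorter CACGTG, which lies within TCACGTG, was also found in Ctsl (7.15% of all windows). The longer CLEAR motif, which contains TCACGTG (0.326%), and TGACTCA, the AP-1 site (5.2%), were found in none of the 10 windows. Matches of these letters are descriptions and not binding sites.

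Values for single genes are in the CPM unit given above. The log2 fold changes are of Brg1cKO over Control from edgeR's quasi-likelihood model, with their standard errors. Since the genes were chosen with this contrast in view, their values are a description and no test is given for them. In a bulk sample, fewer cells of a type and less RNA per cell cannot be told apart. In these libraries the summed CPM of 22 macrophage genes was 442 and 529 for Control and 1881 and 1831 for the Brg1cKO pair, and its part in the values below was not tested.

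Ctsc, Ctss, Ctsz, Ctsb and Ctsk were higher in both of the Brg1cKO pair than in either control, while Ctsa, Ctsd, Ctsh, Ctsl and Lgmn overlapped between the groups. That is 5 of 10 not overlapping and higher, against 26.3% of all tested genes, and 0 of 10 not overlapping and lower, against 17.8%. Leaving out Control replicate 1 or 2 gave 7 of 10 each, against 45.5% and 46.0% of all tested genes, and leaving out Brg1cKO replicate 1 or 2 gave 7 and 5 of 10, each against 35.4%. Nothing is read from these shares, as the genes were chosen on this contrast. The median log2 fold change of the 10 genes was 0.85, beside 0.03 over all 16557 genes tested. By textbook class, 3 of 5 genes of white blood cells (Ctsc, Ctss and Ctsz) and 1 of 4 genes of wide use (Ctsb) did not overlap. Nothing is read from these counts either. Log2 fold changes ran from -0.12 to 0.91 in the genes of wide use and from 0.23 to 2.44 in those of white blood cells.

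**Figure D1:**
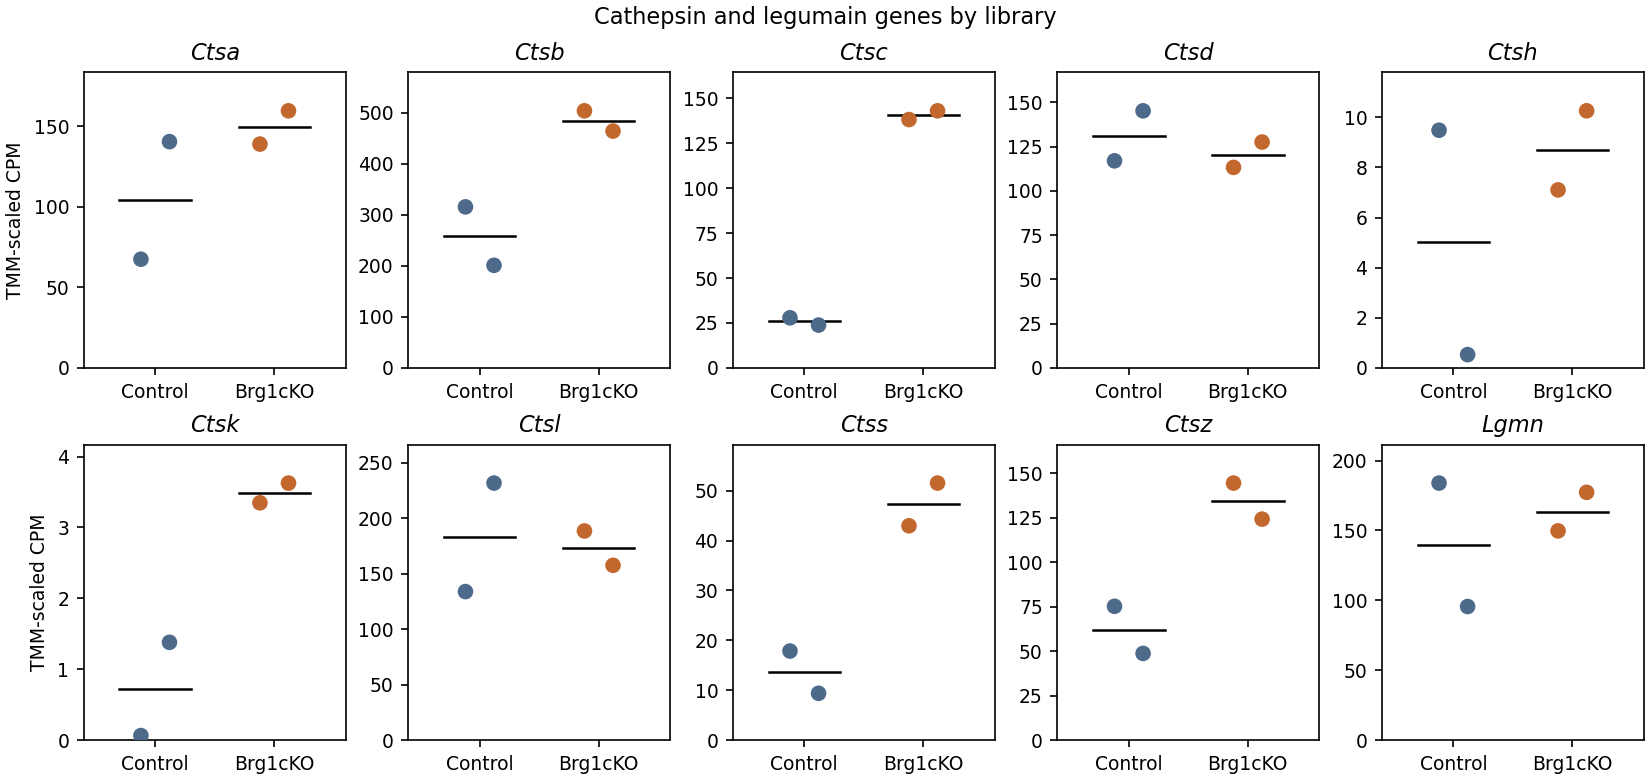
TMM-scaled CPM of each gene (y axes, linear from 0, differing between panels) in the 2 Control and 2 Brg1cKO libraries, with a point per library and a bar at the group mean. Ctsc shows tight pairs far apart (23.8 and 27.9 against 138 and 143 CPM), while the 2 controls of Ctsl and Lgmn lie on both sides of the Brg1cKO pair.

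Ctsc, dipeptidyl peptidase I, trims pairs of residues from the front of proteins and activates the granule proteases of white blood cells. It read 27.9 and 23.8 CPM for Control and 138 and 143 CPM for the Brg1cKO pair. The controls lay close together and far below the others, with a log2 fold change of 2.44 ± 0.299 (SE, n = 2 in each group), or 5.44-fold. Ctsc lies on chromosome 7 (88278085 to 88310888, mm10) and shares no exonic base with another annotated gene. It was the gene of the 10 with the highest log2 fold change.

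Ctss, which trims the invariant chain of class II antigen presentation, read 17.9 and 9.39 CPM for Control and 43.0 and 51.5 CPM for the Brg1cKO pair. The higher control was below the lower of the others. Its log2 fold change was 1.79 ± 0.548 (SE). Ctss lies on chromosome 3 (95526786 to 95556403), on the same strand as Ctsk (95499256 to 95509362) and 17423 bases past its end.

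Ctsk, the collagen-cutting cathepsin of osteoclasts, read 0.065 and 1.38 CPM in the controls, from 1 and 26 reads. In the Brg1cKO pair it read 3.35 and 3.63 CPM, from 98 and 94 reads. With so few reads its log2 fold change of 2.26 ± 2.18 (SE) is poorly fixed, and it was 5.62 without Control replicate 2 and 1.34 without Control replicate 1. Of the osteoclast list, Itgb3, an integrin also made by other cells, read 12.5 and 12.4 CPM for Control and 33.7 and 48.9 CPM for the Brg1cKO pair, without overlap. Mmp9, a matrix protease, overlapped at 0.065 and 1.64 against 0.205 and 4.13 CPM, and the defining marker Acp5 at 1.43 and 0.849 against 0.239 and 3.16 CPM. Dcstamp, Ocstamp and Oscar had reads in 1 library each. Dcstamp had 41 reads in Control replicate 1 and Oscar 51 in Control replicate 2, with 0 in the Brg1cKO pair. Ocstamp had 16 reads in Brg1cKO replicate 1, and Calcr had 94 and 4 reads in the Brg1cKO pair, both with 0 in the controls.

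Ctsz, a carboxypeptidase that removes single residues from the end of proteins, read 75.2 and 48.7 CPM for Control and 144 and 124 CPM for the Brg1cKO pair. The groups did not overlap, with a log2 fold change of 1.12 ± 0.311 (SE). Its exons share 10 bases with Nelfcd on the opposite strand of chromosome 2 (174427493 to 174439039).

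Ctsb, a cysteine protease, cuts both inside chains and at pairs of residues at their end. It read 315 and 201 CPM for Control and 504 and 464 CPM for the Brg1cKO pair. It was the gene of wide use whose groups did not overlap, with a log2 fold change of 0.91 ± 0.221 (SE). Without Control replicate 2 the value was 0.60. Ctsb lies on chromosome 14 (63122462 to 63145923) and 774 of its 6051 exonic bases lie opposite exons of Fdft1, so some reads could belong to either gene if the counting ignored strand. Fdft1 had 860 and 740 reads for Control and 2129 and 1710 reads for the Brg1cKO pair.

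Ctsd, the main aspartic protease of the lysosome, read 117 and 145 CPM for Control and 113 and 128 CPM for the Brg1cKO pair. The fitted log2 difference of -0.12 ± 0.24 (SE) had a 95% interval of -0.69 to 0.44. Ctsl, a potent endopeptidase, read 134 and 232 against 188 and 157 CPM, with the controls on both sides of the others. The fitted log2 difference of -0.08 ± 0.286 (SE) had a 95% interval of -0.75 to 0.59. Ctsd lies on chromosome 7 (142375911 to 142388038) and Ctsl on chromosome 13 (64359337 to 64370890), and each shares exonic bases with predicted genes that had 0 reads in all libraries.

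Ctsa, a serine carboxypeptidase that also shields beta-galactosidase and neuraminidase from breakdown, read 67.5 and 140 CPM for Control and 139 and 160 CPM for the Brg1cKO pair. Control replicate 2 lay level with the lower library labelled Brg1cKO. The log2 fold change of 0.52 ± 0.358 (SE) was 1.13 without Control replicate 2 and 0.09 without Control replicate 1, so the value depends on which control is used. Ctsa lies on chromosome 2 (164832873 to 164841032), and 819 of its 4715 exonic bases lie opposite Neurl2 and Pltp.

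Lgmn, which cuts after asparagine and helps to mature several cathepsins, read 184 and 95.6 CPM for Control and 150 and 177 CPM for the Brg1cKO pair. The controls lay on both sides of the others, with a log2 fold change of 0.23 ± 0.324 (SE) that was -0.19 without Control replicate 2 and 0.78 without Control replicate 1. Ctsh, an aminopeptidase, read 9.48 and 0.531 against 7.10 and 10.3 CPM. Its log2 fold change of 0.79 ± 1.55 (SE) was 4.02 without Control replicate 1 and -0.15 without Control replicate 2. Lgmn lies on chromosome 12 (102394084 to 102439813) and Ctsh on chromosome 9 (90054152 to 90076089). For Ctsl and Ctsd the sign also turned when Control replicate 2 was left out, to 0.35 and 0.02, and for Ctsl without Brg1cKO replicate 2, to 0.05.

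The spread between replicates was wider in the controls for every one of the 10 genes. This measure does not use the difference between groups, but it comes from the libraries on which the genes were chosen. The controls also had fewer reads, whose part in this spread was not tested. The gap between the 2 controls, in log2 of CPM + 0.1, had a median of 0.856 over the 10 genes, while the gap between the Brg1cKO pair had a median of 0.209. Over all tested genes the medians were 0.813 and 0.394, and the gap was wider in the controls for 70.7% of genes. Among tested genes at or above the mean CPM of Ctsh it was wider there for 73.1%. The direction differed between genes. Control replicate 1 was the higher one for Ctsb, Ctsc, Ctsh, Ctss, Ctsz and Lgmn, and Control replicate 2 for Ctsa, Ctsd, Ctsk and Ctsl. Csf1r, a growth factor receptor of macrophages, was also higher in Control replicate 1, at 106 against 56.7 CPM, but Laptm5, a lysosomal membrane protein of blood cells, was lower there, at 51.8 against 74.8 CPM.

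**Figure D2:**
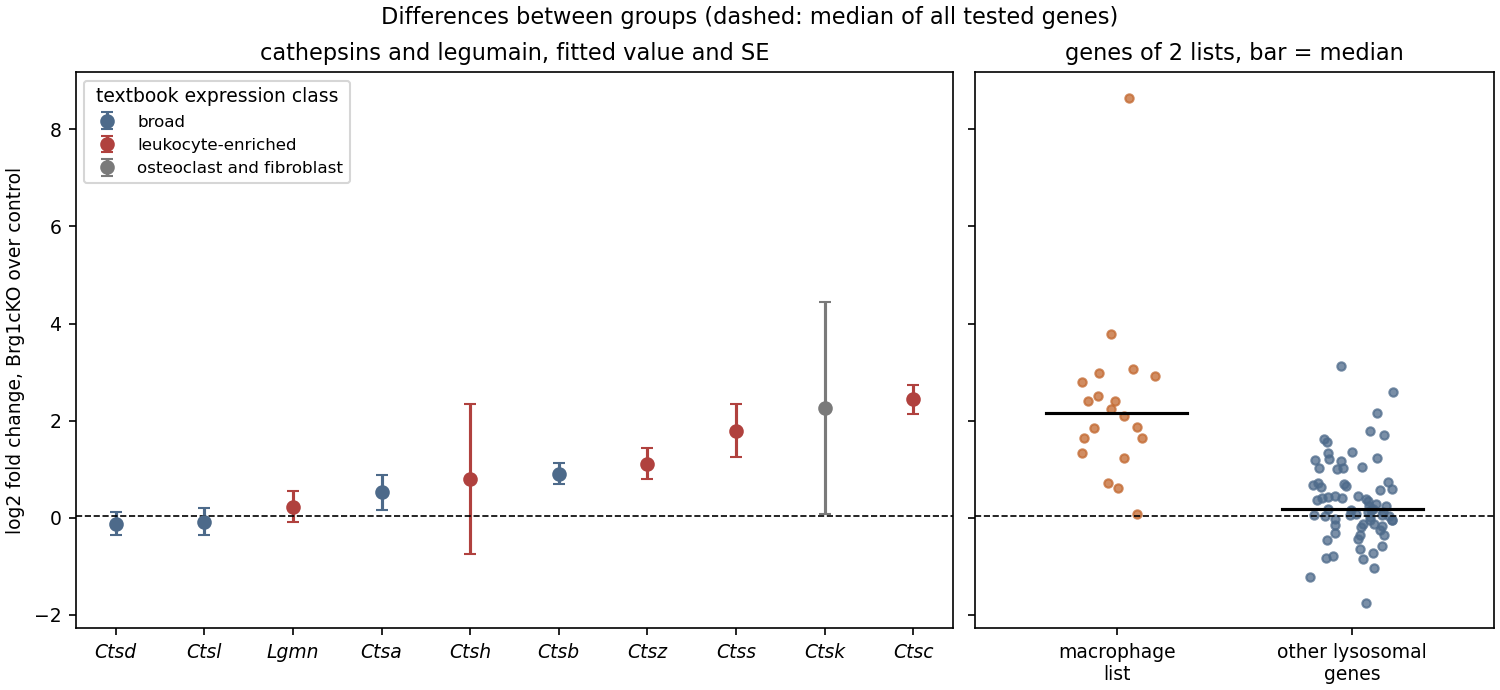
Log2 fold change of Brg1cKO over Control (y axis) for the 10 genes with SE bars, coloured by textbook expression class (left), and for the genes of the macrophage list and of the other lysosomal lists, a point per gene (right). One gene of each list with no read in either control is left out, which leaves medians of 2.17 and 0.17 (black bars), and 8 of the 10 proteases have positive values, from 0.23 for Lgmn to 2.44 for Ctsc.

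To compare levels between genes, counts were divided by the annotated exon length and scaled to the same total in each library (TPM). In the controls Lgmn and Ctsd stood highest, with means of 228 ± 104 and 211 ± 29.7 TPM (SD, n = 2). Ctsz (163 ± 51.0), Ctsb (162 ± 52.4), Ctsl (106 ± 39.1) and Ctsa (83.2 ± 40.5 TPM) followed, and in this run each gene overlapped with the next. Ctss, at 38.1 ± 17.1 TPM, and Ctsc, at 16.8 ± 2.05 TPM, lay below them with no overlap, and Ctsh (4.24 ± 5.37) and Ctsk (1.79 ± 2.31 TPM) were lowest and overlapped each other.

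In the Brg1cKO pair the order by TPM was another. Ctsz was highest at 354 ± 37.2 TPM, ahead of Ctsb at 304 ± 17.1, Lgmn at 268 ± 32.3 and Ctsd at 195 ± 16.7 TPM (SD, n = 2 each). Ctss at 132 ± 17.2 TPM overlapped with Ctsa at 120 ± 11.98 TPM, as did Ctsl at 101 ± 12.7 TPM with Ctsc at 92.0 ± 2.40 TPM. Ctsk (8.77 ± 0.509) and Ctsh (7.34 ± 1.90 TPM) were again lowest and overlapped. With the longest transcript as the length, Ctsb at 298 TPM came ahead of Ctsz at 272 TPM, and Ctsc at 128 TPM moved up from rank 8 to rank 5, so the order among close genes depends on the length used.

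The summed level of the 10 genes was 1099 and 929 TPM for Control and 1571 and 1594 TPM for the Brg1cKO pair. Within that sum Ctsc made up 1.66% in both controls and 5.75% and 5.88% in the Brg1cKO pair. Ctss made up 4.56% and 2.79% against 7.65% and 9.06%. Ctsd made up 17.3% and 24.95% against 11.6% and 13.0%, so its share was lower in both of the Brg1cKO pair while its own CPM overlapped. The 5 genes of the textbook white blood cell class together made up 52.5% and 34.8% of the sum for Control and 53.6% and 54.3% for the Brg1cKO pair. Control replicate 1 thus held nearly the same share as the Brg1cKO pair, with Lgmn alone at 27.5%. The share is therefore not read as a measure of white blood cells.

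**Figure D3:**
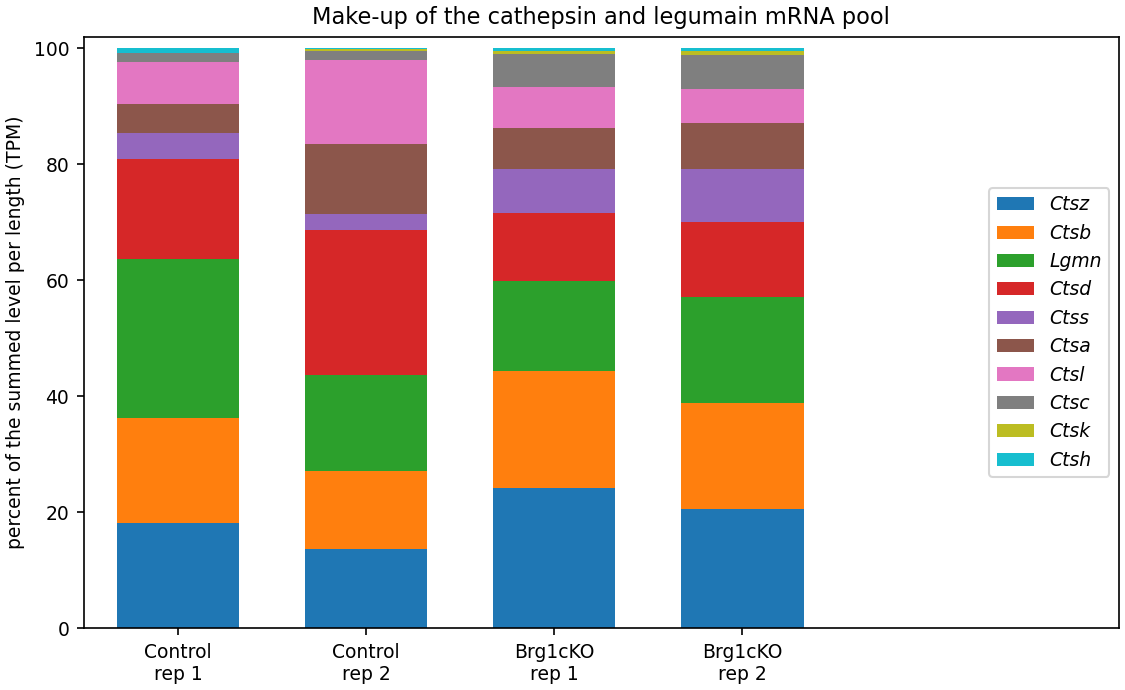
Share of each gene in the summed level per length of the 10 genes (y axis, percent of TPM) in each library (x axis), stacked in the order of the mean level in the Brg1cKO pair. The grey block of Ctsc grows from 1.66% in each control to 5.75% and 5.88%, and the controls differ from each other in Lgmn (27.5% and 16.6%) and Ctsa (4.97% and 12.04%).

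Set against Csf1r of the same library, the genes fell into different patterns. Ctss had 0.168 and 0.166 of the Csf1r CPM for Control and 0.144 and 0.178 for the Brg1cKO pair. The 4 values lay close together and the groups overlapped, although the CPM of Ctss did not. Ctsc had 0.262 and 0.420 against 0.463 and 0.495, higher in both of the Brg1cKO pair. Ctsz (0.706 and 0.859 against 0.484 and 0.430), Ctsb (2.96 and 3.54 against 1.69 and 1.61) and Lgmn (1.73 and 1.69 against 0.502 and 0.614) were lower there. Ctsd had 1.10 and 2.56 against 0.380 and 0.442, and Ctsl 1.26 and 4.08 against 0.632 and 0.545.

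The closeness of Ctss to Csf1r did not hold for other macrophage genes. Per Laptm5, Ctss read 0.345 and 0.126 for Control and 0.218 and 0.263 for the Brg1cKO pair, and per Cx3cr1, a chemokine receptor of macrophages, 0.400 and 0.302 against 0.261 and 0.324. Per summed CPM of the macrophage list it read 0.0404 and 0.0177 against 0.0228 and 0.0281. Ctsc was higher in both of the Brg1cKO pair on each of these scales, with 0.0631 and 0.0450 against 0.0735 and 0.0781 per summed list. Ctsa, Ctsb, Ctsd, Ctsl, Ctsz and Lgmn were lower there per summed list, with Ctsd at 0.265 and 0.274 against 0.0602 and 0.0697. These ratios are a description of 4 libraries and share the values of the contrast on which the genes were chosen.

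**Figure D4:**
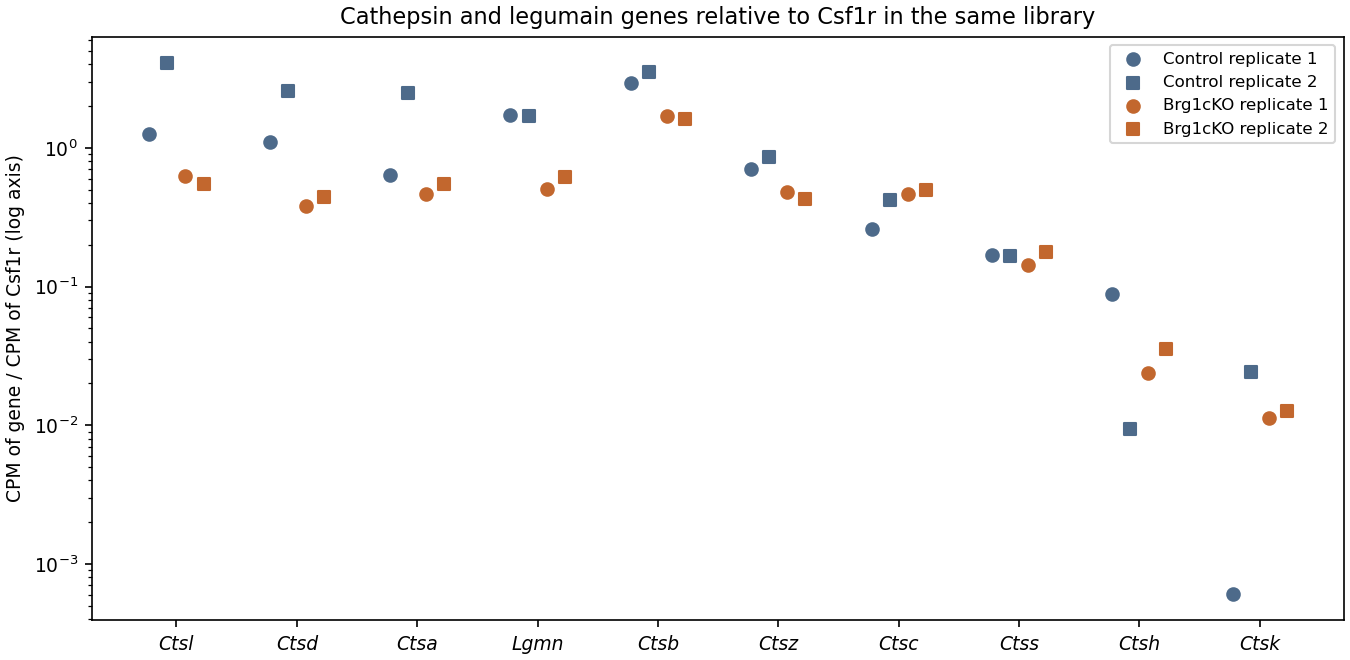
CPM of each gene divided by the CPM of Csf1r in the same library (y axis, log scale), with a point per library. The 4 points of Ctss lie between 0.144 and 0.178, while those of Ctsl, Ctsd and Lgmn are lower in both of the Brg1cKO pair than in either control.

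The macrophage list gives the setting for these values. Like the other lists, it was chosen with earlier results of these data known, so its shares are a description. All 21 of its tested genes had positive log2 fold changes, against 51.5% of all tested genes, with a median of 2.24. Of them 18 did not overlap between the groups and were higher, against 26.3% of all tested genes. Mrc1, the mannose receptor of macrophages, rose from 46.3 and 71.7 to 424 and 397 CPM and was the gene of this list that passed (adjusted p = 0.0371, edgeR). Passing and higher were 0.0121% of all genes tested. DESeq2 called 13 of the 21 and limma voom 3, where these tools called 14.6% and 0.326% of all tested genes. When every gene with at least 1 count was tested, 11 were called, beside 417 of all 25174 genes. With the replicate block 9 were called, beside 140 of all 16557 genes, so the number of calls depends on the fit. Csf1r read 106 and 56.7 against 298 and 289 CPM, and Laptm5 51.8 and 74.8 against 197 and 196 CPM. Cd163, a scavenger receptor of mature macrophages, had 0 reads in all 4 libraries. Among the 10 proteases only Ctsc and Ctsk had a log2 fold change above the macrophage median, Ctsk at 2.26 ± 2.18 (SE) against 2.24. Without Control replicate 1 the value of Ctsk was 1.34, below the macrophage median of 2.38 in that fit. Ctsd and Ctsl had values near that of all genes.

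The other genes of the lysosome were taken from lists of other cathepsins, sorting receptors, membrane proteins, hydrolases and the proton pump. Of 84 genes, 74 were tested and 0 passed in either direction with edgeR, where 0.0121% of all genes passed higher and 0.0181% lower. At an unadjusted p under 0.05 there were 13, with 12 higher and 1 lower, beside 12.5% of all tested genes. DESeq2 called 14 of the 74 and limma voom 1, where these tools called 14.6% and 0.326% of all tested genes. Of the 74 tested genes, 50 had a positive and 24 a negative log2 fold change, where 51.5% of all tested genes were positive. The median of the list was 0.20. Groups did not overlap for 28 higher and 12 lower genes, or 40 of 74, beside 26.3% higher and 17.8% lower over all tested genes.

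Among sorting receptors, Igf2r, the large mannose 6-phosphate receptor that carries cathepsins to the endosome, read 635 and 407 CPM for Control and 1042 and 1052 CPM for the Brg1cKO pair. It did not pass (log2 fold change 1.01 ± 0.198 SE, adjusted p = 0.178, edgeR). Psap, the precursor of lipid-degrading saposins, read 282 and 384 against 393 and 392 CPM, and the sorting receptor Sort1 170 and 127 against 119 and 114 CPM. The membrane protein Lamp1 read 254 and 167 against 355 and 338 CPM, while Lamp2 overlapped at 90.7 and 126 against 133 and 90.9 CPM. Of all 11 membrane proteins tested, 4 did not overlap and were higher, beside 26.3% of all tested genes. Another 1 did not overlap and was lower, beside 17.8%.

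Positive log2 fold changes were found for 7 of 8 sorting genes, 8 of 11 membrane proteins, 21 of 35 hydrolases and 12 of 16 pump subunits. Npc2, a cholesterol carrier, read 124 and 121 CPM for Control against 102.3 and 104 CPM for the Brg1cKO pair, and Man2b1, a mannosidase, 73.3 and 74.7 against 95.2 and 137 CPM. The pump subunit Atp6v1a read 192 and 147 against 98.8 and 93.1 CPM, lower in both of the Brg1cKO pair, whereas Atp6v1b2 overlapped at 68.7 and 159 against 141 and 116 CPM. The pump subunit Atp6v0a1 also overlapped, at 57.9 and 146 against 108 and 112 CPM. These 5 genes did not pass with edgeR. DESeq2 called Atp6v1a (log2 fold change -0.86, adjusted p = 0.00116), and edgeR called it without either control, with adjusted p of 0.0386 without Control replicate 1 and 4.51e-05 without Control replicate 2. Atp6v1b2 and Atp6v0a1 were called higher without Control replicate 2 (adjusted p = 0.00431 and 0.00713, edgeR).

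Of the other cathepsins, Ctsf, a cysteine protease of broad use, read 59.4 and 22.1 CPM for Control and 18.5 and 16.5 CPM for the Brg1cKO pair, against the direction of Ctsb and Ctsc. Ctso read 2.73 and 0.637 against 11.3 and 8.91 CPM. Ctsw, a cathepsin of cytotoxic lymphocytes, had 0 reads in both controls and 261 and 157 reads in the Brg1cKO pair. Of the 14 other cathepsins, 8 had 0 reads in all 4 libraries, among them Cts3, Cts6 and Ctsj of the placental family, which were named after their values were seen.

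Inhibitors and regulators completed the pathway. Of 5 tested inhibitors and 10 tested regulators, 0 passed with edgeR and with limma voom. Over all tested genes edgeR called 0.0121% higher and 0.0181% lower, and limma voom 0.326%. At an unadjusted p under 0.05 there was 1 in each list, beside 12.5% of all tested genes. These were Cst3 and Mitf (the latter named after its values were seen). DESeq2 called 1 in each list, beside 14.6% of all tested genes. Cst3, cystatin C, the secreted inhibitor of cysteine cathepsins, read 73.1 and 69.7 CPM for Control and 135 and 128 CPM for the Brg1cKO pair. Cstb, its cytosolic relative, overlapped at 17.3 and 31.5 against 16.3 and 32.2 CPM, as did Serpinb6a at 66.6 and 38.5 against 52.8 and 60.5 CPM. Mtor, the kinase that holds lysosomal gene expression in check, read 113 and 61.8 against 161 and 135 CPM, and its partner Rptor 103 and 96.7 against 106 and 115 CPM. Zkscan3, a repressor of lysosomal genes, read 59.7 and 147 against 80.3 and 84.1 CPM.

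Markers of other cells differed in sum between the groups as well. The summed CPM of 18 otic genes was 2267 and 2502 for Control and 697 and 726 for the Brg1cKO pair, and that of 7 striated muscle genes was 40.5 and 91.2 against 394 and 394. Endothelial genes summed to 2670 and 2478 against 3012 and 2964 CPM and mesenchyme genes to 3794 and 4185 against 3065 and 3150 CPM. Of 11 mesenchyme genes 6 had positive and 5 negative log2 fold changes, and the median was 0.10; Col1a1 read 1107 and 1207 against 568 and 580 CPM. Neuronal genes summed to 1447 and 1453 against 476 and 414 CPM, and Nefm, a neurofilament gene, fell from 592 and 717 to 199 and 211 CPM (adjusted p = 0.0371, edgeR). Red cell genes summed to 619 and 648 against 222 and 207 CPM and lymphoid genes to 10.7 and 19.8 against 45.4 and 37.6 CPM. The part of these cells in the levels of the 10 proteases was not tested.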

How the data were processed

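The authors deposited raw read counts per Ensembl gene for each of 4 libraries, with no normalization. Per the submitters' processing notes, the tools were HISAT2, HTSeq and DESeq2 (roles and versions not given) and the build mm10. No source used here gives the annotation or strand setting behind the counts. The 5 closing lines of each table, which name no gene, were left out. GENCODE release M21 (mm10) gave symbols and exon lengths for 52489 of 52636 identifiers.

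The counts were fitted over all genes with edgeR 4.0.16 in R 4.3.3 (filterByExpr minimum count 10, TMM, robust quasi-likelihood fit, F-test of group, Benjamini-Hochberg adjustment, threshold 0.05), which kept 16557 genes. The fit was tested on simulated counts. Precision rests on 2 libraries per group, and reads carry no molecular identifiers, so intervals cover no amplification error. The members and 19 context lists were chosen with earlier results of these data known. The rule for names took all members and, per list, the 3 genes of highest mean CPM and any that passed; lists of other cell types are given mainly as sums, so not all of these are printed. Cx3cr1, Cd163, Dcstamp, Ocstamp, Oscar, Calcr, S100a8 and S100a9 were named as defining markers. One gene that the rule names is not reported here. The alternatives were other scalings, filters and tools, the replicate block and each library left out.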

Additional observations from a re-analysis of the deposited data

How the results depend on the processing

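Called genes numbered 5 over all genes and 0 among the other lysosomal genes. They were 417 and 3 (Igf2r, Gusb and Lamp1) when every gene with at least 1 count was tested, 2422 and 14 with DESeq2, 54 and 1 (Igf2r) with limma voom, 10 and 0 with a minimum count of 50, and 38 and 0 at an adjusted p under 0.10. With the replicate number as a block they were 140 and 2 (Igf2r and Gusb). Same-numbered libraries did not deviate together (r = 0.00957 across 16557 genes), so the numbers are not taken to pair them. Leaving out 1 library in turn gave 33 to 3519 calls over all genes and 1 to 30 among lysosomal genes. The high counts came without a control: 3519 and 16 without Control replicate 1, and 3355 and 30 without Control replicate 2. Without Brg1cKO replicates 1 and 2 there were 45 and 33 calls, with Igf2r the lysosomal call in both. The lone library is then assumed to vary like the other group, and the cause of the other shifts was not tested. Lamp1, Gusb and the lysosomal calls of Igf2r were named after their values were seen. Over 14 alternatives Ctsc kept a log2 fold change of 2.32 to 2.57, Ctss 1.38 to 2.34, Ctsz 0.82 to 1.47 and Ctsb 0.60 to 1.27. The median over all genes moved to 0.29 without either control. The counts of members not overlapping and higher with a library left out (5 to 7, where the share of all tested genes was 35.4% to 46.0%) were chosen after seeing the data. Ctsk had 1 and 26 reads in the controls, which limits its fold change.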

Other observations

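Genes of class II antigen presentation gave few reads. Cd74, the invariant chain that Ctss trims, read 0 and 10.3 CPM for Control and 1.02 and 5.86 CPM for the Brg1cKO pair. H2-Aa, H2-Eb1 and Ciita, class II genes and their activator, had 0 reads in all 4 libraries. H2-DMa read 19.1 and 0.584 against 1.06 and 0.347 CPM, and H2-Ab1 0.195 and 0.849 against 1.43 and 6.56 CPM.

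Of 8 granule proteases that Ctsc activates or that share that route, Prtn3, proteinase 3 of myeloid granules, was the one tested. It read 1.04 and 0 CPM for Control and 9.08 and 20.0 CPM for the Brg1cKO pair, and did not pass (adjusted p = 0.396, edgeR), while DESeq2 called it higher. Mpo, myeloperoxidase of the same granules, read 7.15 and 41.4 against 132 and 97.6 CPM, while the neutrophil genes S100a8 and S100a9 had 0 reads in all 4 libraries.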
